A study of Mus musculus with 7 samples.

Results

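The genes of the PU.1 family, Spi1, Spib and Spic, were examined through the accessible chromatin around them. Spi1 encodes the ETS transcription factor PU.1, Spib encodes Spi-B and Spic encodes Spi-C. The 3 genes were taken from 21924 protein-coding genes, and every ATAC-seq peak that overlapped a gene body or the 30 kb on either side was kept (mm10, the GRCm38 assembly, with GENCODE M21 genes). This gave 220 of the 647973 peaks in 7 lists. Merging overlapping peaks across libraries gave 40 of 145247 regions, of which 20 lay around Spi1, 16 around Spib and 4 around Spic.

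PU.1 is required for both myeloid and B-lymphoid development, and its dose matters, since high levels favour macrophages and lower levels are compatible with B cells. Spi1 is controlled by its promoter and by an upstream regulatory element (URE), an enhancer that binds RUNX1 and PU.1 itself. Spi-B shares much of its DNA recognition with PU.1 and acts mainly in B cells and plasmacytoid dendritic cells, and Spi-C is best known from red pulp macrophages, where haem induces it, and from B cells, where it can oppose PU.1. ATAC-seq reads open chromatin and not RNA, so no value below is a level of expression.

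B-cell precursors were sorted from adult mice as pre-proB cells, proB cells and preB cells, each stage arising from the one before, with gates for B220 and against IgM, NK1.1 and CD11c. WT libraries of all 3 stages came from Ergfl/fl controls, whose floxed Erg alleles were left intact without Cre. The single Erg KO library was made from pre-proB cells of genotype Rag1CreT/+;Ergdelta/delta. Rescue libraries at the same 3 stages carried Rag1CreT/+;Ergdelta/delta;IgHVH10tar, that is, the same deletion and, on one chromosome, a heavy chain allele that is already rearranged (IgHVH10tar/+ in the study's text). Rag1Cre acts in lymphoid cells from the common lymphoid progenitor on, so earlier progenitors keep Erg, an ETS factor related to PU.1. Every Erg-deficient library carries Rag1Cre and no WT library does, so loss of Erg and presence of Cre cannot be told apart. Rescue stages were taken from the sample titles, and the source names of these 3 samples give other stages. Each of the 7 groups had 1 library, so no spread between animals could be estimated, no test was run and every difference below is between libraries. Intervals of pileups and of their ratios cover counting error only. Wilson intervals of shares treat neighbouring peaks of 1 library as separate draws, and they measure no spread between animals.

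The lists held 76465 to 105649 peaks. The height of a peak is given as its summit pileup, the number of fragments over the highest point, against a background pileup of 3.49 to 4.60 fragments per library. The lowest pileup among called peaks was 10 to 12. A region without a peak may still hold fragments, and the lists do not say how many. Ratios of pileups were divided by the median ratio over all regions with a peak in both libraries, and a scaled ratio of at least 2 in either direction was called past 2-fold. Of all coding genes, 61.4 to 65.5% had a promoter peak in each library. Promoters of B-lineage markers with a peak numbered 9 of 10 in WT pre-proB, 6 in Erg KO, 7 in Rescue pre-proB and 10 in the other libraries. T-cell marker promoters numbered 6, 7 and 4 in WT (pre-proB, proB and preB), 9 in Erg KO and 9, 7 and 5 in Rescue, and Cd3e had none in any library. Myeloid marker promoters numbered 5 to 8 and erythroid ones 5 or 6, with Elane, Gata1 and Alas2 at no peak in any library. Of the plasmacytoid dendritic markers, 9 or 10 of 10 had a peak in each library. By the −log10 q of the promoter peak, 6 of these 10 plasmacytoid dendritic markers were higher in all 3 pre-proB libraries than in any other (Siglech, Bst2, Irf8, Ccr9, Tlr7 and Pacsin1), 1 was lower (Tlr9) and 3 overlapped, among them Tcf4 and Ly6d. Of all coding genes, 17.8% were higher in this way and 13.6% lower. A gene without a promoter peak in any library counts here as neither, so the shares among genes with a peak are higher. Of the myeloid markers 4 were higher (Csf3r, Itgam, Cebpa and Cd14) and 1 lower (Csf1r), of the T-cell markers 2 and 2, of the erythroid markers 2 and 0, and of the B-lineage markers 1 and 8.

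The regions on which the results turn are shown first, as the 200 bases around the highest summit, in the direction of the gene and read from GRCm38. The Spi1 sequences are from the plus strand of chromosome 2. The first is the URE region at −12.9 kb (chr2:91083073-91083272), open in all 7 libraries. The next are the regions at −9.6 kb (chr2:91086432-91086631) and −8.4 kb (chr2:91087550-91087749), which marked the pre-proB libraries, and the region at 40.7 kb (chr2:91136732-91136931), highest in WT proB. Capitals mark the letters of a searched motif, the PU.1 letters GAGGAAGT on the minus strand at 40.7 kb.
Spi1 −12.9 kb: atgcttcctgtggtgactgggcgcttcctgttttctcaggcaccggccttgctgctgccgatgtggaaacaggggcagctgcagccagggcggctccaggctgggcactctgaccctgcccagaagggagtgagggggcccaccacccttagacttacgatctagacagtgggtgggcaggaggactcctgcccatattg
Spi1 −9.6 kb: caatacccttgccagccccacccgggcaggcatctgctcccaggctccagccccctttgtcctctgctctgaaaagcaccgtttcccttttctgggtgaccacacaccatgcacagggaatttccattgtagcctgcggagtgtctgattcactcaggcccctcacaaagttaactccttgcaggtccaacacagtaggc
Spi1 −8.4 kb: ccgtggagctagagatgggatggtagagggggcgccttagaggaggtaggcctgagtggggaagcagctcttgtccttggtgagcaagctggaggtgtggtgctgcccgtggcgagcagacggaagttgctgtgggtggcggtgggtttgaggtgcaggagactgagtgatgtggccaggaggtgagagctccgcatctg
Spi1 40.7 kb: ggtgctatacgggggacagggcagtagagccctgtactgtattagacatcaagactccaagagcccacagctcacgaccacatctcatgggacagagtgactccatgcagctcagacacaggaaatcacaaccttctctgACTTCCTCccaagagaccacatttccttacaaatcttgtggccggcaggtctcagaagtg

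For Spib, 3 regions outside exons are shown from the minus strand of chromosome 7. The region at −4.4 kb (chr7:44536352-44536551) was lower in both Erg-deficient pre-proB libraries, the one at −11.6 kb (chr7:44543575-44543774) had peaks in pre-proB libraries alone, and the one at −24.6 kb (chr7:44556548-44556747) had peaks from proB on. Capitals mark an E-box (CAGGTG) at −4.4 kb, an EICE (GGAANNGAA, the composite letters bound by PU.1 or Spi-B with IRF4 or IRF8) at −11.6 kb and the C/EBP letters TTGCNNAA at −24.6 kb, each on whichever strand they were found.
Spib −4.4 kb: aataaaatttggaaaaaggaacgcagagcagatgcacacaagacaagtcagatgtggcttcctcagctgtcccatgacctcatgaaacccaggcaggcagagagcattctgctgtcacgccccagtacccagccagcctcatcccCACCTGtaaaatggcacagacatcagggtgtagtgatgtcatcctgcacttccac
Spib −11.6 kb: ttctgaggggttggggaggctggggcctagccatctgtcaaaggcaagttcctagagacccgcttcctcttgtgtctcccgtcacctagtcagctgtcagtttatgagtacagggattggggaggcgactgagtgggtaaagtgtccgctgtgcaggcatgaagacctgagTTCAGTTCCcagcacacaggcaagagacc
Spib −24.6 kb: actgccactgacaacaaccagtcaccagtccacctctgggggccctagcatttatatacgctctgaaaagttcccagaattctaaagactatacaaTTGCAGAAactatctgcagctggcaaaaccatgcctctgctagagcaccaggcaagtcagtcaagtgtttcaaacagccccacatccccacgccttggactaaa

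The promoters of Spib and Spic are shown because all 7 libraries had a peak at the former and 3 at the latter. They are the 250 bases before the annotated start in the RefSeq promoter table (GRCm38.p6), minus strand, at chr7:44532072-44532321 and chr10:88683024-88683273. Of the 3 genes, 2 had an entry in that table.
Spib promoter: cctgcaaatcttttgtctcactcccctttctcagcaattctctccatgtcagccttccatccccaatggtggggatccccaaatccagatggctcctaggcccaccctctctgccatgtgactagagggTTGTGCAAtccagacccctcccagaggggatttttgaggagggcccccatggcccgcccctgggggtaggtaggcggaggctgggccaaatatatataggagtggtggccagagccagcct
Spic promoter: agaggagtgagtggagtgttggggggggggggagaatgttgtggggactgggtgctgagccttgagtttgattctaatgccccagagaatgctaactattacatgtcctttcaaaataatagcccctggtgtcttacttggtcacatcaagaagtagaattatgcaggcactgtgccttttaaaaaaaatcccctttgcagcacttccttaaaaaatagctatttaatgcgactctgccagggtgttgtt
The capitals in the Spib promoter mark a match to the C/EBP letters, which 9.56% of all promoters in the table hold. The Spic promoter holds none of the 8 motifs searched, which says only that these letters are not in these 250 bases.

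On either strand of 200 bases at the summit, the PU.1 letters (GAGGAAGT) were in 1 of 40 regions, against 7.22% of all regions, and the ETS core (ACCGGAAG) in 1, against 0.758%. EICE letters were in 2 regions, both at Spib, against 9.77%. RUNX letters (TGTGGTT) were in 1, against 10.8%, and C/EBP letters in 3, against 7.92%. E-box letters were in 11, against 20.0%, EBF letters (CCCNNGGGA) in 4, against 5.88%, and the octamer ATGCAAAT in none, against 2.06%. These counts are too few to order the motifs, and a match is a description of letters and not of binding. The only PU.1 match lay in the Spi1 region at 40.7 kb, 44 bp from its summit.

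Spi1 (ENSMUSG00000002111) lies on chromosome 2 from 91082390 to 91115756 on the plus strand, and its main transcription start site (TSS) is at 91096096. Positions are given from this TSS, negative upstream. The gene stood in a dense stretch of peaks, with 14, 14 and 11 peaks in its window in WT pre-proB, proB and preB. In Erg KO there were 16, and Rescue had 19, 14 and 12 in the same order of stages. In peaks per 10 kb it ranked above 85.2 to 96.7% of coding genes. Not all of these peaks need belong to Spi1. The region at −42.0 kb held the promoter of Psmc3, a proteasome subunit gene, with pileups of 262 to 360. The region at −25.6 kb held that of Slc39a13, a zinc transporter gene, with pileups of 561 to 769.

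**Figure D1:**
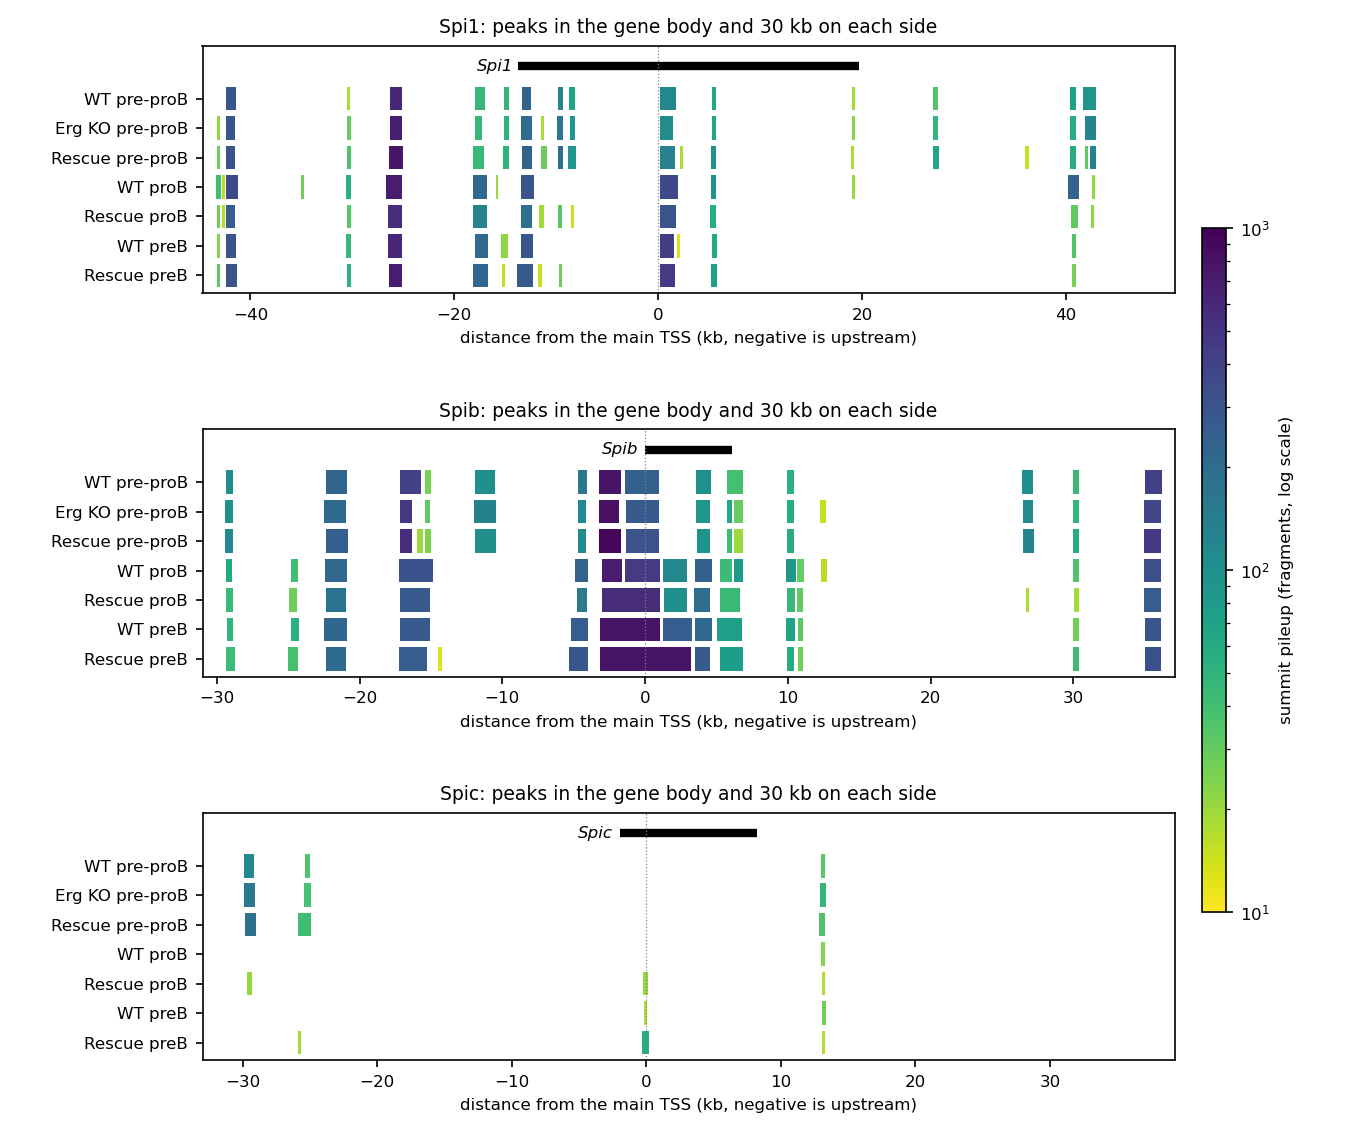
Peaks of the 7 libraries (rows) around Spi1, Spib and Spic. The x axis is the distance from the main TSS in kb, the black bar is the gene body and the colour is the summit pileup in fragments on a log scale. The 3 pre-proB rows share peaks at −9.6 and −8.4 kb of Spi1 and −11.6 kb of Spib that the WT proB and WT preB rows lack.

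The Spi1 promoter was open in all 7 libraries and was higher from proB on. Its summit pileup was 117, 368 and 444 in WT pre-proB, proB and preB, 109 in Erg KO, and 131, 310 and 453 in Rescue. The 3 pre-proB libraries therefore lay between 109 and 131, and all 4 later libraries at 310 or more. From WT pre-proB to WT proB the scaled ratio was 3.15 (95% counting interval 2.55 to 3.91), and from Rescue pre-proB to Rescue proB 3.67 (2.99 to 4.54). Within its own list the promoter peak ranked above 74.3 to 76.7% of peaks in the pre-proB libraries and above 94.7 to 96.4% later. The interval included 1 for Rescue over WT proB, at 1.01 (0.866 to 1.18), and for Erg KO over WT pre-proB, at 0.845 (0.645 to 1.11), which does not show that the heights were the same.

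A promoter peak in all 7 libraries was no rare property, since 58.7% of coding genes had one. Spi1 and Spib did, and Spic did not.

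The URE region was open at every stage and with or without Erg. The region taken for it lies on chromosome 2 from 91082247 to 91083937, and is the one nearest to the position 14 kb upstream of the TSS, which falls 151 bp outside it, between this region and the next at −14.9 kb. It also covers the starts of 2 longer Spi1 transcripts, at 91082390 and 91082408, which are outside the basic annotation, so enhancer and upstream promoter cannot be told apart by position. Its pileup was 232, 298 and 289 in WT pre-proB, proB and preB, 198 in Erg KO and 234, 192 and 278 in Rescue. The values spanned 192 to 298, a narrower range than that of the promoter. The scaled ratio was 1.28 (1.08 to 1.53) from WT pre-proB to proB and 0.774 (0.637 to 0.940) from WT to Erg KO. At pre-proB, Rescue over WT was 0.832 (0.691 to 1.002). The ratio of Rescue to WT was 0.773 (0.642 to 0.930) at proB and 0.842 (0.711 to 0.996) at preB, so the Erg-deficient library was the lower one in all 4 comparisons with WT, in 3 of them beyond counting error, or in 2 when ratios were scaled on background pileup. None of the 4 was past 2-fold, and the 2 pre-proB comparisons share the WT library.

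Just upstream of the URE region, the region at −14.9 kb (91080634 to 91081468) behaved otherwise. Its pileup was 48, 51 and 51 in the WT, Erg KO and Rescue pre-proB libraries, and both proB libraries had no peak there. The preB libraries had 22 in WT and 15 in Rescue, with summits nearer to −15.2 kb. All 3 pre-proB libraries were thus above the 4 later ones.

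The intergenic region at −17.2 kb rose most among the Spi1 regions with a peak in both WT stages. It had a pileup of 46, 211 and 209 in WT pre-proB, proB and preB, 46 in Erg KO, and 45, 133 and 217 in Rescue. The 3 pre-proB libraries were within 1 fragment of each other. From pre-proB to proB the scaled ratio was 4.59 in WT (3.32 to 6.46) and 4.59 in Rescue (3.25 to 6.59). Of all regions with a peak in both libraries, 95.4% had a lower ratio in WT and 98.0% in Rescue. Each was the highest member ratio of its step and so high by selection, which makes these shares descriptions only. Rescue proB was below WT proB, at 0.756 (0.604 to 0.944). The summit also lay elsewhere: its distance to the TSS was −17725, −17639 and −17711 bp in the WT, Erg KO and Rescue pre-proB libraries, and between −17358 and −17234 bp in the 4 later ones.

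The regions at −9.6 and −8.4 kb, within the longer Spi1 transcripts, ran the other way. At −9.6 kb (91086200 to 91086783) the pileup was 126, 167 and 187 in the WT, Erg KO and Rescue pre-proB libraries. WT proB and WT preB had no peak, and Rescue proB and preB had 33 and 28. At −8.4 kb (91087294 to 91088060) the pre-proB libraries had 66, 89 and 91, Rescue proB had 14 and the other 3 had no peak. The pre-proB libraries were thus higher at both, with no overlap with the later ones. From Rescue pre-proB to proB the scaled ratio was 0.274 (0.183 to 0.398) at −9.6 kb and 0.239 (0.126 to 0.422) at −8.4 kb. The step from WT pre-proB to proB has no ratio, since WT proB had no peak. Erg KO over WT pre-proB was 1.20 (0.948 to 1.53) and 1.22 (0.880 to 1.71).

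**Figure D2:**
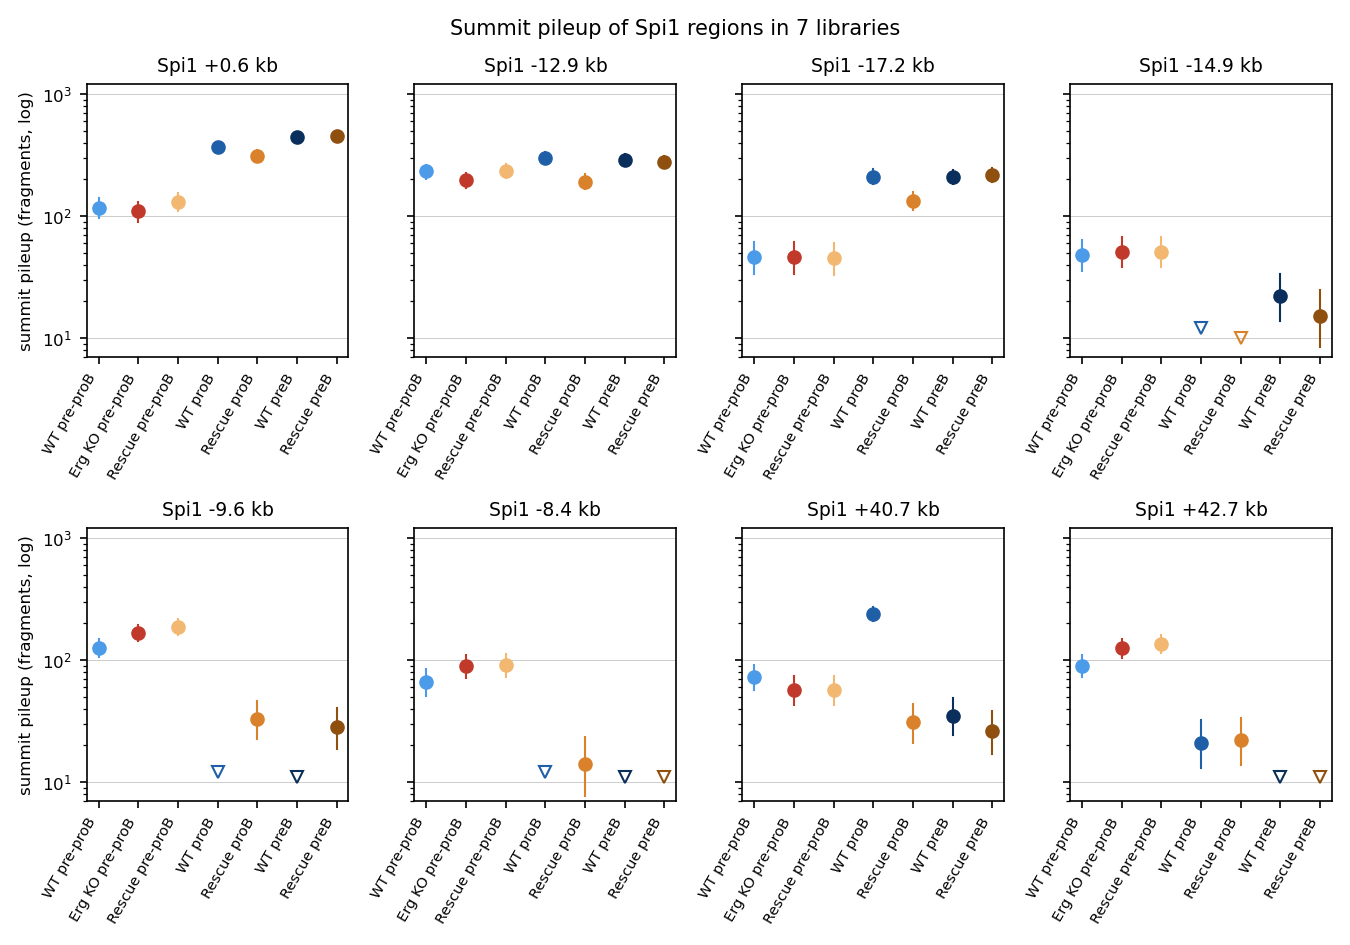
Summit pileup (fragments, log axis) of 8 Spi1 regions in 7 libraries, ordered by stage. Points are single libraries, bars are exact 95% Poisson intervals, and open triangles are libraries without a peak, drawn at the lowest pileup called in that library; the promoter (0.6 kb) and −17.2 kb rise from proB on, −9.6 and −8.4 kb fall, and WT proB stands alone at 40.7 kb.

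Inside the gene, the region at 5.5 kb in intron 2 (91101171 to 91101827) had a peak in all 7 libraries. It was highest in WT proB and Rescue pre-proB, with no ratio past 2-fold. Its pileup was 65, 95 and 61 in WT pre-proB, proB and preB, 65 in Erg KO and 97, 58 and 72 in Rescue. Weak peaks of 18 to 23 stood at 19.1 kb, in the last exon, in the 3 pre-proB libraries and WT proB. A faint peak of 18 to 23 fragments is close to the lowest pileup called, so its absence elsewhere may be a matter of depth.

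Beyond the 3′ end of Spi1 lies Mybpc3, a cardiac myosin-binding protein gene, 2388 bp away and without a promoter peak in any library. The region at 40.7 kb (91136308 to 91137348), with its summit between Mybpc3 and Madd, had its highest pileup in WT proB. Its pileup was 73, 240 and 35 in WT pre-proB, proB and preB, 57 in Erg KO and 57, 31 and 26 in Rescue. WT proB stood above all 6 others, and Rescue proB lay among the lowest. From WT pre-proB to WT proB the scaled ratio was 3.29 (2.52 to 4.33), and from WT proB to WT preB it was 0.167 (0.114 to 0.239). Rescue proB over WT proB was 0.155 (0.103 to 0.226), lower than 99.7% of the regions with a peak in both. As the lowest of 24 member ratios it is low by selection, so this share is a description only. In the next region, at 42.7 kb in an intron of Madd, the pileup was 90, 125 and 135 in the WT, Erg KO and Rescue pre-proB libraries. WT and Rescue proB had 21 and 22 there, and neither preB library had a peak. A peak at 27.2 kb, in an intron of Mybpc3, was found in the pre-proB libraries alone, with 35, 48 and 66 in WT, Erg KO and Rescue.

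Spib (ENSMUSG00000008193, chromosome 7, 44525993 to 44532071, minus strand) has its TSS at 44532071. Its window held 14, 16 and 13 peaks in WT pre-proB, proB and preB, 16 in Erg KO and 16, 14 and 13 in Rescue. It ranked above 97.4 to 99.0% of coding genes in peaks per 10 kb, but the promoters of 5 other genes lie in the same window. Pold1, the catalytic subunit of DNA polymerase delta, ends 675 bp upstream of Spib, and Mybpc2, a myosin-binding protein gene, starts 1337 bp beyond its 3′ end. The other 3 are Nr1h2, which encodes the oxysterol receptor LXR beta, Emc10 and Fam71e1. All 5 had a promoter peak in all 7 libraries.

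The Spib promoter was open in all 7 libraries, in a stretch that widened from proB on. In the WT, Erg KO and Rescue pre-proB libraries a peak of its own covered the TSS, with a summit pileup of 247, 271 and 312, about 700 bp inside the gene. In WT proB that peak had 450. In Rescue proB, WT preB and Rescue preB it was joined in 1 peak with a higher summit at −2.4 kb, in the exons of Pold1, so no height of the promoter alone can be given. A further peak inside Spib, about 2.26 kb from the TSS, had a pileup of 117 in WT proB, 102 in Rescue proB and 261 in WT preB. In Rescue preB this stretch was part of the joined peak, from 44528872 to 44535238, and no pre-proB library had a peak there. Merged over libraries, the whole stretch spanned 6505 bp (44528774 to 44535278), and its highest summit, at −2.4 kb, had a pileup of 774, 687 and 795 in WT, 834 in Erg KO and 914, 566 and 797 in Rescue. Over the 9 comparisons the scaled ratio of that summit lay between 0.877, for Rescue over WT preB, and 1.33 (1.20 to 1.47), for WT preB over WT proB.

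At the 3′ end of Spib, the region at 3.9 kb (44527360 to 44528612), over exons, followed the Spi1 promoter. Its pileup was 98, 247 and 216 in WT pre-proB, proB and preB, 87 in Erg KO and 93, 196 and 269 in Rescue. All pre-proB values lay under 100 and all later ones above 195. The scaled ratio from pre-proB to proB was 2.52 (1.99 to 3.22) in WT and 3.27 (2.54 to 4.23) in Rescue. The region at 6.4 kb, which reaches the promoter of Mybpc2, had a highest summit of 39 fragments in WT pre-proB and 83 in WT proB. The scaled ratio was 2.13 (1.44 to 3.20) and came to just under 2-fold when scaled on promoters. These summits lay apart, at 5.9 kb in pre-proB and at 6.39 kb in proB. A separate WT proB peak at 5.58 kb had 43, so the ratio compares different summits of the merged region.

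The region at −4.4 kb, in an intron of Pold1 (44536063 to 44537372), had the lowest ratio of Erg KO to WT pre-proB among the members. Its pileup was 160, 241 and 264 in WT pre-proB, proB and preB, 115 in Erg KO and 108, 147 and 288 in Rescue. At pre-proB the 2 Erg-deficient libraries lay below WT, and at proB Rescue did so again, while at preB Rescue and WT had similar values. Erg KO over WT pre-proB was 0.652 (0.508 to 0.834), and 2.45% of all regions had a lower ratio. As the lowest of 29 member ratios it is low by selection, so this share is a description only. Rescue over WT was 0.557 (0.432 to 0.715) at pre-proB, again the lowest of 29 member ratios, with 0.995% of regions lower. It was 0.732 (0.592 to 0.902) at proB and 0.955 (0.805 to 1.13) at preB. Both pre-proB ratios use the same WT library, so they are not separate measurements of it, and neither was past 2-fold.

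Other Spib regions divided by stage. The region at −11.6 kb, in another intron of Pold1, had pileups of 101, 138 and 101 in the WT, Erg KO and Rescue pre-proB libraries and no peak in any later library. At 26.7 kb, in exons of Mybpc2, the pre-proB libraries had 100, 110 and 123, and Rescue proB had 18. Conversely, the region at −24.6 kb, intergenic beyond Nr1h2, had no peak in pre-proB libraries, 40 and 54 in WT proB and preB, and 28 and 39 in Rescue proB and preB. The region at 10.9 kb was alike, with 30 and 32 in WT and 31 and 27 in Rescue.

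Spic (ENSMUSG00000004359, chromosome 10, 88674772 to 88685015, minus strand, TSS at 88683023) lay in sparse chromatin. Its window held 3, 1 and 2 peaks in WT pre-proB, proB and preB, and 3 in each of the other 4 libraries. It ranked above 20.0 to 41.9% of coding genes in peaks per 10 kb, and no other coding gene starts in the window. Its promoter had no peak in any pre-proB library nor in WT proB. It had a peak of 18 fragments in WT preB, 21 in Rescue proB and 58 in Rescue preB, from 88682863 to 88683336 once merged. Rescue preB was 2.82 times WT preB (1.64 to 5.08), and 0.509% of regions had a higher ratio. As the highest of 24 member ratios it is high by selection. The values of WT preB and Rescue proB, with a −log10 q of 6.19 and 8.65, were near the weakest of their lists, above 11.6% and 27.7% of peaks. Promoter peaks in exactly these 3 libraries were found at 16 coding genes, 0.073%. The pattern was read from Spic itself and rests in part on these weak peaks, so the share is a description only.

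Upstream of Spic the pre-proB libraries stood apart again. The region at −29.5 kb (88712075 to 88712915) had pileups of 114, 159 and 182 in the WT, Erg KO and Rescue pre-proB libraries, 21 in Rescue proB and no peak in the other 3. At −25.1 kb they had 36, 38 and 41, with 19 in Rescue preB alone among the later libraries. That Rescue preB peak, with its summit at −25.75 kb, did not overlap the WT or Erg KO pre-proB peak. It was merged with them through the wider Rescue pre-proB peak. The region at 13.1 kb, beyond the 3′ end, was the only Spic region present in all 7, with pileups of 17 to 47.

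**Figure D3:**
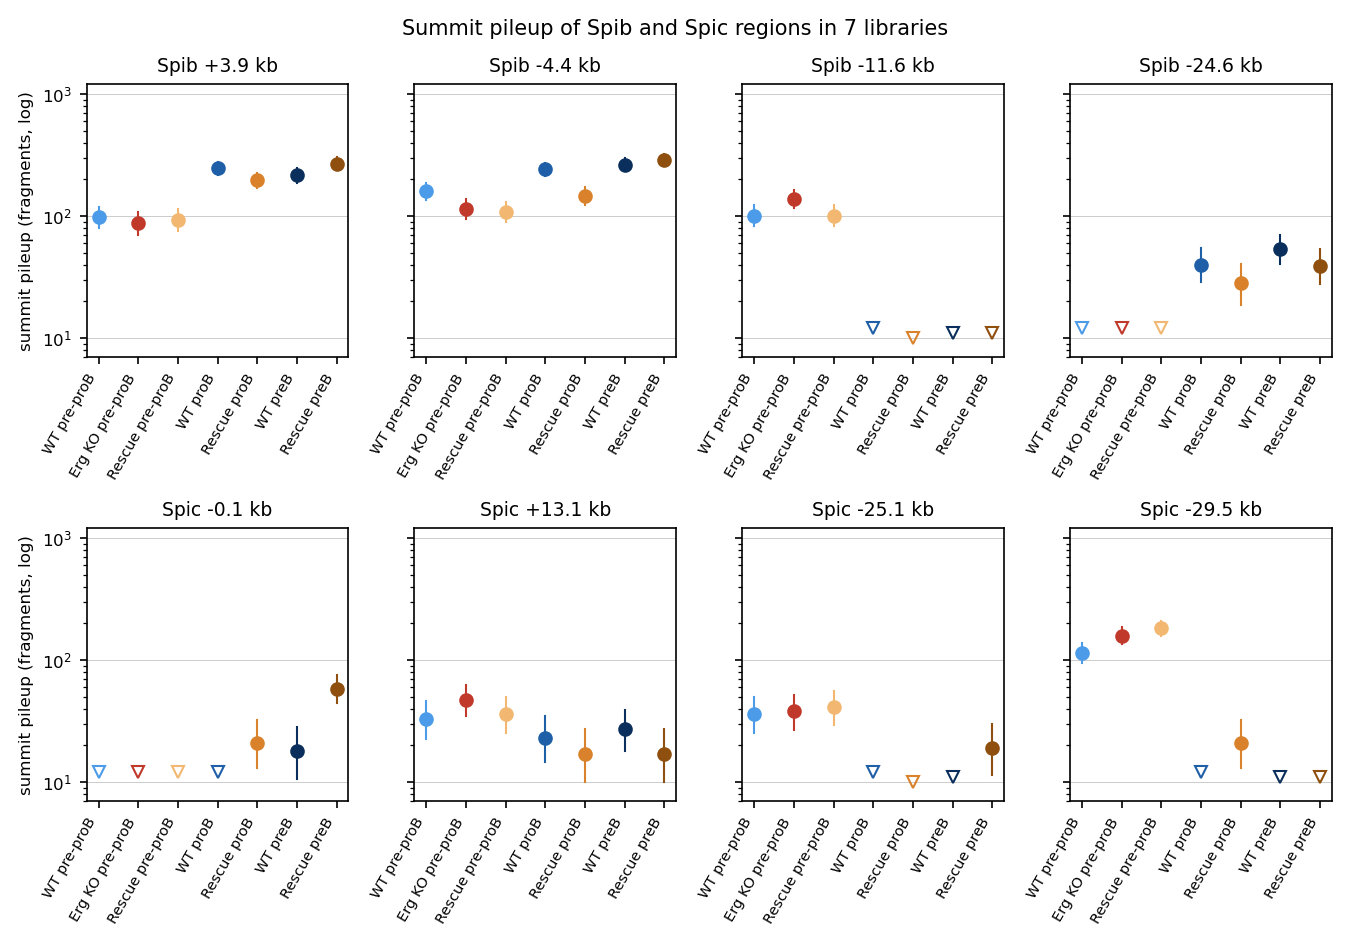
Summit pileup (fragments, log axis) of 4 Spib regions (top) and 4 Spic regions (bottom) in 7 libraries, ordered by stage. Points are single libraries, bars are exact 95% Poisson intervals, and open triangles are libraries without a peak, drawn at the lowest pileup called; Spib −11.6 kb and Spic −29.5 kb are high in the pre-proB libraries, and the Spic promoter (−0.1 kb) reaches 58 fragments in Rescue preB.

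Erg KO was set against WT pre-proB to compare accessibility at a fixed stage, between libraries that differ in Erg and in Cre. All 31 WT pre-proB peaks around the 3 genes overlapped an Erg KO peak (Wilson interval 89.0 to 100%), where 6.88% of all WT pre-proB peaks did not. Of 35 Erg KO peaks, 32 overlapped a WT peak (91.4%, 77.6 to 97.0%), against a share without one of 13.6% in the whole list. The 3 Erg KO peaks without one were weak, at −43.2 and −11.2 kb of Spi1 and 12.5 kb of Spib, with pileups of 21, 18 and 15. In the 29 regions with a peak in both, the scaled ratio lay between 0.652 and 1.51 with a median of 0.977. None was past 2-fold, as were 0.618% of all such regions. The counting interval was wholly below 1 at 3 of the 29, Spi1 −12.9 kb and Spib −4.4 and 35.5 kb, against 3.36% of all regions, and wholly above 1 at none, against 2.94%. At Spib 35.5 kb, the shared promoter of Emc10 and Fam71e1, the ratio was 0.868 (0.755 to 0.998). When scaled on background pileup or on promoters, the interval there reached 1, and those of Spib 6.4 kb and Spic −29.5 kb lay above it.

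The change with stage in WT was larger. From pre-proB to proB, 23 of 31 peaks were kept (74.2%, 56.8 to 86.3%), and 34.1% of the whole WT pre-proB list lacked a proB peak. Seen from proB, 23 of 31 had a pre-proB peak, and 31.9% of the whole WT proB list had none. In the 21 regions with a peak in both, 6 were at least 2-fold higher in proB and 1 was at least 2-fold lower. Over all regions 30.8% were past 2-fold, 15.5% higher and 15.3% lower. The 6 were Spi1 −30.3, −17.2, 0.6 and 40.7 kb and Spib 3.9 and 6.4 kb, and the lower one was Spi1 42.7 kb, at 0.233 (0.138 to 0.378). At Spi1 −30.3 kb the WT pre-proB peak was faint, with 18 fragments against 54 in WT proB. Erg KO and Rescue pre-proB had 30 and 36 there, and Rescue proB had 33. A further 7 regions had a peak in proB alone of the pair and 8 in pre-proB alone.

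From WT proB to preB the windows changed less. Of 31 proB peaks, 25 had a preB peak (80.6%, 63.7 to 90.8%), and 24 of 26 preB peaks had a proB peak (92.3%, 75.9 to 97.9%). In the whole lists 26.7% and 10.7% lacked one. In the 22 regions with a peak in both, Spi1 40.7 kb alone was past 2-fold, against 14.4% of all regions.

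**Figure D4:**
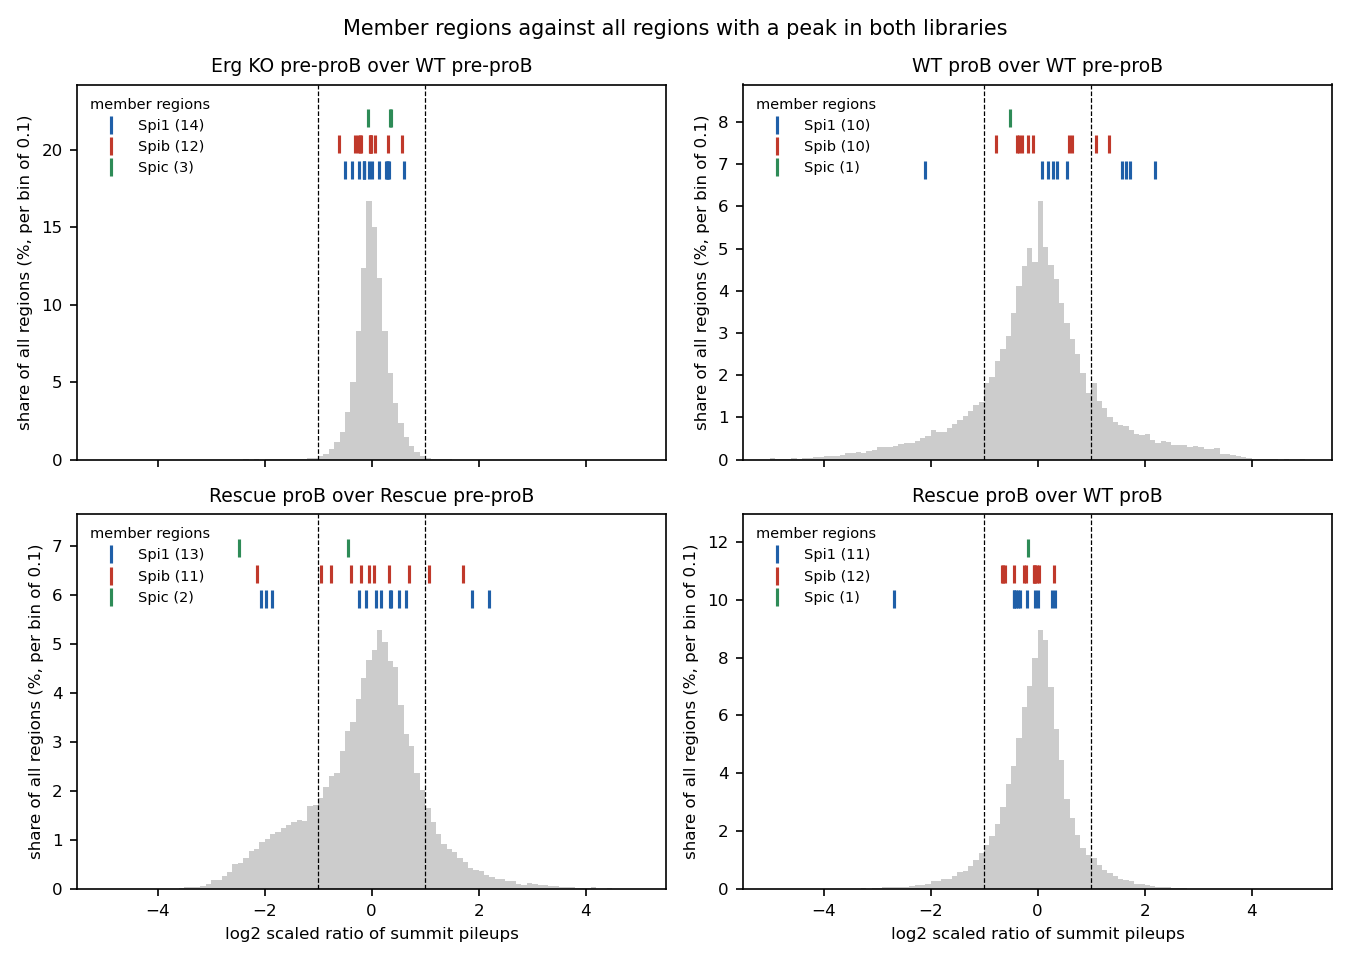
Distribution of the log2 scaled ratio of summit pileups over all regions with a peak in both libraries (grey, percent of regions per bin of 0.1), with the regions around Spi1, Spib and Spic as ticks and their number in the key. Dashed lines mark 2-fold; all 29 ticks of Erg KO over WT pre-proB lie inside them, 7 of 21 in WT proB over WT pre-proB lie outside, and Spi1 40.7 kb lies alone to the left in Rescue proB over WT proB.

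Rescue was set against WT at each stage to see how chromatin lay in cells that lack Erg and carry a ready-made heavy chain. At pre-proB, all 31 WT peaks overlapped a Rescue peak (89.0 to 100%; 5.88% of the whole list did not), as did 34 of 38 Rescue peaks a WT peak (89.5%, 75.9 to 95.8%; 15.6% of the list did not). In the 29 regions with a peak in both, the ratio lay between 0.557 and 1.65, none past 2-fold, against 0.79% of all regions. The counting interval was wholly above 1 at 2, Spi1 27.2 kb and Spic −29.5 kb, against 3.56% of all regions, and wholly below 1 at 2, Spi1 40.7 kb and Spib −4.4 kb, against 3.49%. Rescue and Erg KO, which both lack Erg, had 31 regions with a peak in both and none past 2-fold, where 0.2% of all regions were.

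At proB, 27 of 31 WT peaks overlapped a Rescue peak (87.1%, 71.1 to 94.9%), and 20.6% of the WT proB list did not. Of 31 Rescue peaks 25 overlapped a WT peak (80.6%, 63.7 to 90.8%), and 19.8% of that list did not. In the 24 regions with a peak in both, Spi1 40.7 kb was the 1 region past 2-fold, against 12.6% of all regions. The 6 regions with a peak in Rescue proB and none in WT proB included Spi1 −11.2, −9.6 and −8.4 kb, Spib 26.7 kb, and Spic −0.1 and −29.5 kb. Of these 6, 4 had a peak in every pre-proB library and in neither later WT library, as did 51.3% of all regions with a peak in Rescue proB and none in WT proB. At preB, 25 of 26 WT peaks overlapped a Rescue peak (96.2%, 81.1 to 99.3%) and 24 of 28 Rescue peaks a WT peak (85.7%, 68.5 to 94.3%), against unmatched shares of 8.02% and 17.9% in the whole lists. In the 24 regions with a peak in both, the Spic promoter alone was past 2-fold, against 3.83% of all regions.

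Within Rescue, 26 regions had a peak at both pre-proB and proB. Of these 4 were at least 2-fold higher at proB (Spi1 −17.2 and 0.6 kb, Spib 3.9 and −4.4 kb) and 5 at least 2-fold lower (Spi1 −9.6, −8.4 and 42.7 kb, Spib 26.7 kb and Spic −29.5 kb), against 30.4% of all regions in either direction, 11.4% higher and 19.1% lower. Spib −4.4 kb rose 2.11-fold in Rescue (1.64 to 2.73), and the ratio was 1.51 in WT (1.23 to 1.85). The scale matters here, since background pileups would lower every Rescue ratio of this step by 0.24 on the log2 scale and promoter medians by 0.30. Spib −4.4 kb then came to 1.79 and 1.72, and Spib 30.2 kb passed 2-fold as lower, at 0.439 and 0.421, as did Spib −29.1 kb on promoters, at 0.484. From Rescue proB to preB, 25 regions had a peak in both, and the Spic promoter alone was past 2-fold, at 2.32, against 6.94% of all regions, joined on the background scale by Spib 30.2 kb.

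Over the 7 libraries, 19 of the 40 regions had a peak in all, against 32% of all regions, and these were 8 of 20 at Spi1, 10 of 16 at Spib and 1 of 4 at Spic. Many of the 40 are promoters, some of them of neighbouring genes. Of the 29 member regions outside promoters, 11 had a peak in all 7 (37.9%), while the 32% includes promoters. Peaks in the 3 pre-proB libraries and in neither WT proB nor WT preB were found at 7 of 40 regions, against 17.7%. All 7 lay outside promoters, where they made up 24.1% of the 29 member regions, while the 17.7% includes promoters. The difference between these shares was not tested. The 7 were Spi1 −9.6, −8.4 and 27.2 kb, Spib 26.7 and −11.6 kb, and Spic −25.1 and −29.5 kb. Their pileups in pre-proB libraries ran from 35 to 187. In the same 3 libraries 6 of 10 plasmacytoid dendritic markers were higher and 1 was lower, in cells sorted against CD11c, and 4 of 10 myeloid markers were higher and 1 was lower, as given above. Of the erythroid markers 2 were higher and 0 lower, of the T-cell markers 2 and 2, and of the B-lineage markers 1 and 8. These counts rest on −log10 q, which is not scaled between libraries. The part of plasmacytoid dendritic, myeloid or other cells in these peaks was not tested. The opposite pattern, with peaks in WT proB and WT preB and in no pre-proB library, was found at 2 regions, both at Spib, against 7.43%, and 4 regions had a peak in 1 library only, against 17.8%.

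Of a list of 27 genes tied to PU.1, 23 had a promoter peak in all 7 libraries, against 58.7% of all coding genes. The 7 upstream regulators all did, among them Runx1 and Cebpa, and so did 4 of 5 partners and antagonists, among them Irf4 and Irf8, which bind EICE sites together with PU.1 or Spi-B. Gata1, which opposes PU.1 in erythroid cells, had no promoter peak in any library. Of 11 targets 9 did, including Csf1r, Il7r, Flt3 and Fcgr2b. The remaining targets were Csf3r, the G-CSF receptor, and Cd79a, a chain of the B-cell receptor. The Csf3r promoter had weak peaks in the WT, Erg KO and Rescue pre-proB libraries alone, with a −log10 q of 8.82, 6.83 and 4.67. The Cd79a promoter had a −log10 q of 43.2, 676 and 587 in WT pre-proB, proB and preB, no peak in Erg KO, and 5.29, 383 and 565 in Rescue. Of the genes around Spic function, Bach1, Hmox1 and Slc40a1 had a promoter peak in all 7 and Vcam1 in none. By −log10 q, 10 of the 27 promoters were higher in all 3 pre-proB libraries than in any other, among them Cebpa and Irf8, and 7 were lower, among them Runx1, Csf1r and Cd79a, against the 17.8% and 13.6% of all coding genes. Those shares include genes without a promoter peak in any library and are higher among genes with a peak. These q-values grow with depth and are not scaled between libraries.

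The genes whose windows varied most like those of the members were found by Pearson correlation over the 7 libraries of the share of covered bases, among coding genes of similar mean share on other chromosomes. For Spi1 they were Ppp6r3 (r = 0.915), Rpl17 and BC031181 (both 0.862, overlapping genes with the same values), of 7572 genes compared. For Spib they were Hyal2 (0.997), Rassf1 (0.996) and Cyb5d1 (0.994) of 3719, and for Spic they were Defb30 (0.983), Defb42 (0.964) and Muc20 (0.963) of 1668. Such values are descriptions over 7 points that share depth and list length, and the highest among so many genes is high by selection.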

How the data were processed

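The authors aligned paired-end ATAC-seq reads to mm10 with Bowtie2 and called peaks per library with MACS2, without pooling; the submitters' processing notes also name CASAVA 1.8.2 and Picard. The sources used here do not give their versions or options, nor duplicate handling or read shifts, and all of these bear on the number and width of peaks. The methods name sonication and the labels Tn5.

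The score the authors deposited is 10 times the −log10 q, and the −log10 p and −log10 q they deposited belong to the summit. The fold the authors deposited is a ratio of summit to background pileup, each plus 1. Every fold was a whole multiple of 1 step per library, within 0.02, which gave the pileups used here. Read totals were not used here. The sequence of 1 region and the values of 1 marker gene are not reported here. As duplicates may be included, fragments are not all independent molecules.

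Regions are peaks of all libraries merged by at least 1 bp. Shares carry Wilson and pileup ratios exact binomial 95% intervals. Promoters are 1000 bp either side of a TSS (GENCODE M21 basic). Members and lists were chosen with earlier results of these data known. Named were the members' regions, neighbouring genes, pathway genes not alike in all libraries, and the 3 most similar genes per member. Other pathway genes, marker genes and regions outside the gene bodies and promoters were named after their values were seen. Alternatives were lists of 76465 and 38232 peaks, other windows, overlap, annotation, scaling, motif window and stages by source name. Calculations used Python 3.11.15, numpy 2.4.6, pandas 2.3.3 and scipy 1.17.1, tested on simulated peaks.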

Additional observations from a re-analysis of the deposited data

Results flagged for a closer look

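The Spi1 region at 40.7 kb was picked out because WT and Rescue moved in opposite directions from pre-proB to proB. The scaled ratio was 3.29 in WT and 0.844 (0.527 to 1.33) in Rescue, and the Rescue interval includes no change. The Spi1 region at 19.1 kb was picked out for the same reason on faint peaks. Its ratio was 1.05 in WT, with 20 against 19 fragments, and fell just under 1 under both other scalings, and in Rescue the pre-proB library had a peak of 18 fragments and the proB library none. With 1 library per group neither difference was tested.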

How the results depend on the processing

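Scaling by background pileups or by promoter medians was added after seeing the data. Of 231 ratios, 32 crossed 1 on the background scale and 15 on the promoter scale, of which 1 each had an interval clear of 1 (Spi1 −25.6 kb, Rescue proB over pre-proB). Calls past 2-fold changed at 3 and 4 ratios, none in comparisons with WT at a fixed stage. For Rescue over WT pre-proB, intervals wholly above 1 numbered 7 on the background scale (2 as reported) and those below 1 numbered 1, Spib −4.4 kb. In lists cut to 76465 peaks, the share of WT proB peaks with a WT preB peak rose to 92.59% and with a Rescue proB peak to 96.3%. In lists of 38232 peaks it rose to 94.74% for WT preB, the share of Erg KO peaks with a WT pre-proB peak was 100%, and only 1 library kept a Spic promoter peak. Read by source name, the Rescue library called pre-proB shared 74.19% of WT pre-proB peaks. The cut lists hold fewer peaks by construction, and the cause of the other shifts was not tested. The other 46 shares and counts of libraries with a promoter or URE peak stayed within their intervals or within 1.5 times. Of 21 counts of peaks per window and library, all 21 changed by more with the gene body alone, 17 with 10 kb windows and 17 with lists of 38232, which hold less by construction. In 400 bases, C/EBP letters were in 8 of 40 regions and E-box letters in 19, against 15.3% and 31.6% of all regions. No paired analysis was possible because the labels carry no replicate numbers and each group had 1 library. A region without a peak may hold fragments in a number the lists do not give, so faint peaks may be missed for depth.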
